A study of Mus musculus with 21 samples.

Results

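The comparison of pressure-overloaded hearts under sildenafil with sham-operated hearts was taken from RNA sequencing of left ventricle myocardium of C57BL/6J mice. Its members are the 5 libraries labelled TAC+PDE5A-I and the 5 labelled sham, 10 of the 21 libraries of the series, each from a mouse with its own ear tag. The TAC+PDE5A-I mice had surgery for pressure overload (TAC, a constriction of the transverse aorta that raises the load on the left ventricle) and received sildenafil, an inhibitor of the phosphodiesterase PDE5A, for 4 weeks starting 1 week after surgery. Mice labelled TAC (5 libraries) had the same surgery and no drug, and sham mice had a sham operation and no drug. The sources used here do not state sex, age, dose or any vehicle, and the 6 TAC+PDE9A-I libraries entered the filter, the scaling, the estimate of the spread and the principal components, but no comparison. The question is what of the expression response to overload is still present in hearts treated with sildenafil.

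Pressure overload makes the ventricle grow and re-express fetal isoforms of contractile proteins and the natriuretic peptides, while fibroblasts lay down matrix and genes of mitochondrial energy use decline. PDE5A degrades cyclic GMP, which guanylate cyclases produce on stimulation by nitric oxide or natriuretic peptides. Cyclic GMP activates the kinase PKG, whose known targets in heart muscle include Rgs2, a brake on G protein signals.

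Values below are CPM, a gene's share of its library's counts after scaling between libraries, and differences are log2 fold changes over sham from edgeR's quasi-likelihood test with their standard error (SE). Calls rest on an adjusted p under 0.05 (Benjamini-Hochberg over all 14135 genes tested), and only called genes are said to have risen or fallen. Total counts averaged 34.1 ± 4.13 M in TAC+PDE5A-I libraries and 30.3 ± 6.08 M in sham libraries (SD, n = 5 each; two-sided exact permutation p = 0.222). A count of 3 was worth 0.0781 to 0.1095 CPM in TAC+PDE5A-I libraries and 0.0796 to 0.116 CPM in sham libraries, which limits the precision of genes near 1 CPM. Cardiomyocyte markers were abundant, with Tnnt2 at 4008 ± 220 CPM in TAC+PDE5A-I hearts and 4539 ± 325 CPM in sham hearts. Of 9 atrial cardiomyocyte markers 6 were tested, of which 2 rose (Nppa and Dkk3) and 1 fell (Tbx5). The atrial markers Sln and Myl7 were too low to be tested.

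The 5 TAC+PDE5A-I libraries did not behave as 1 group for part of the response, and the division follows their ear tag numbers. Libraries 1 and 2 carry tags in the 500s and libraries 3 to 5 tags in the 600s, whereas sham libraries 1 to 3 carry tags in the 100s and sham libraries 4 and 5 tags in the 600s. The sources used here do not state what an ear tag series stands for. Myh7, the beta myosin heavy chain of the fetal mouse ventricle, shows the division most plainly: it stood at 380 and 420 CPM in TAC+PDE5A-I libraries 1 and 2 and at 3386, 5714 and 6931 CPM in libraries 3 to 5. The TAC libraries lay at 2783 to 8670 CPM and the sham libraries at 198 to 326 CPM, so libraries 1 and 2 were just above sham and below every TAC library. The TAC library with a tag in the 500s, library 3, had the highest Myh7 of its group, at 8670 CPM. On the first principal component of all libraries, which held 42.3% of the variance, TAC+PDE5A-I libraries scored -10.2 to 36.4 and sham libraries -46.1 to -26.1, with no overlap.

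Against sham, 2066 genes (14.6% of those tested) were called in TAC+PDE5A-I hearts: 963 rose (6.81%) and 1103 fell (7.80%), of which 330 rose and 107 fell by more than 2-fold. In the same fit, TAC against sham called 3558 genes (25.2%), 1718 higher (12.2%) and 1840 lower (13.0%). Both comparisons use the same sham libraries, so their results are set side by side and no overlap between them is given. The direct comparison of TAC+PDE5A-I with TAC called 2 genes (0.0141%), both higher with the drug, and 731 genes had an unadjusted p under 0.05 there, while DESeq2 called 8. The median 95% interval of that difference, not adjusted for the number of genes tested, reached 0.243 (log2) to either side. Larger differences also went without a call, such as those of Hspb6 (0.39, 95% interval 0.11 to 0.67) and Cthrc1 (-1.62, 95% interval -3.09 to -0.15). Single genes could thus have differed by more than 0.243 without a call. Of all genes tested, 2199 (15.6%) did not overlap between TAC+PDE5A-I and sham libraries. In bulk tissue fewer cells of a type and less RNA per cell cannot be told apart, which holds for every level below.

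The count of calls against sham leaned on single libraries and on the ear tag series. It was 580 without TAC+PDE5A-I library 4, 950 without library 3 and 1058 without library 5, and it was 870, 1205, 1127 and 1020 without sham library 1, 2, 3 and 4. With TAC+PDE5A-I libraries 3 to 5 alone it was 2350, of which 1755 were among the 2066. With libraries 1 and 2 alone edgeR called 0 genes, while 1348 genes had an unadjusted p under 0.05 in that test of 2 libraries against 5. When the ear tag series was added to the model, 276 genes remained called (140 higher, 136 lower, 266 of them among the 2066). Because only the 600s hold libraries of both groups, the tag series and the treatment cannot be told apart for the other libraries. Among the genes described below that kept their call with this term were Acta1, Nppb, Ankrd1, Ankrd23, Comp, Thbs4, Cilp, Col12a1, Nox4, Corin, Tbx5, Kcnh2, Hspa5 and Hspb6. Those that lost their call with it included Myh7, Nppa, Gdf15, Fmod, Ltbp2, Postn, Sfrp2, Rcan1, Rgs2, Ryr2, Atp2a2, Tcap and Cox7b.

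**Figure D1:**
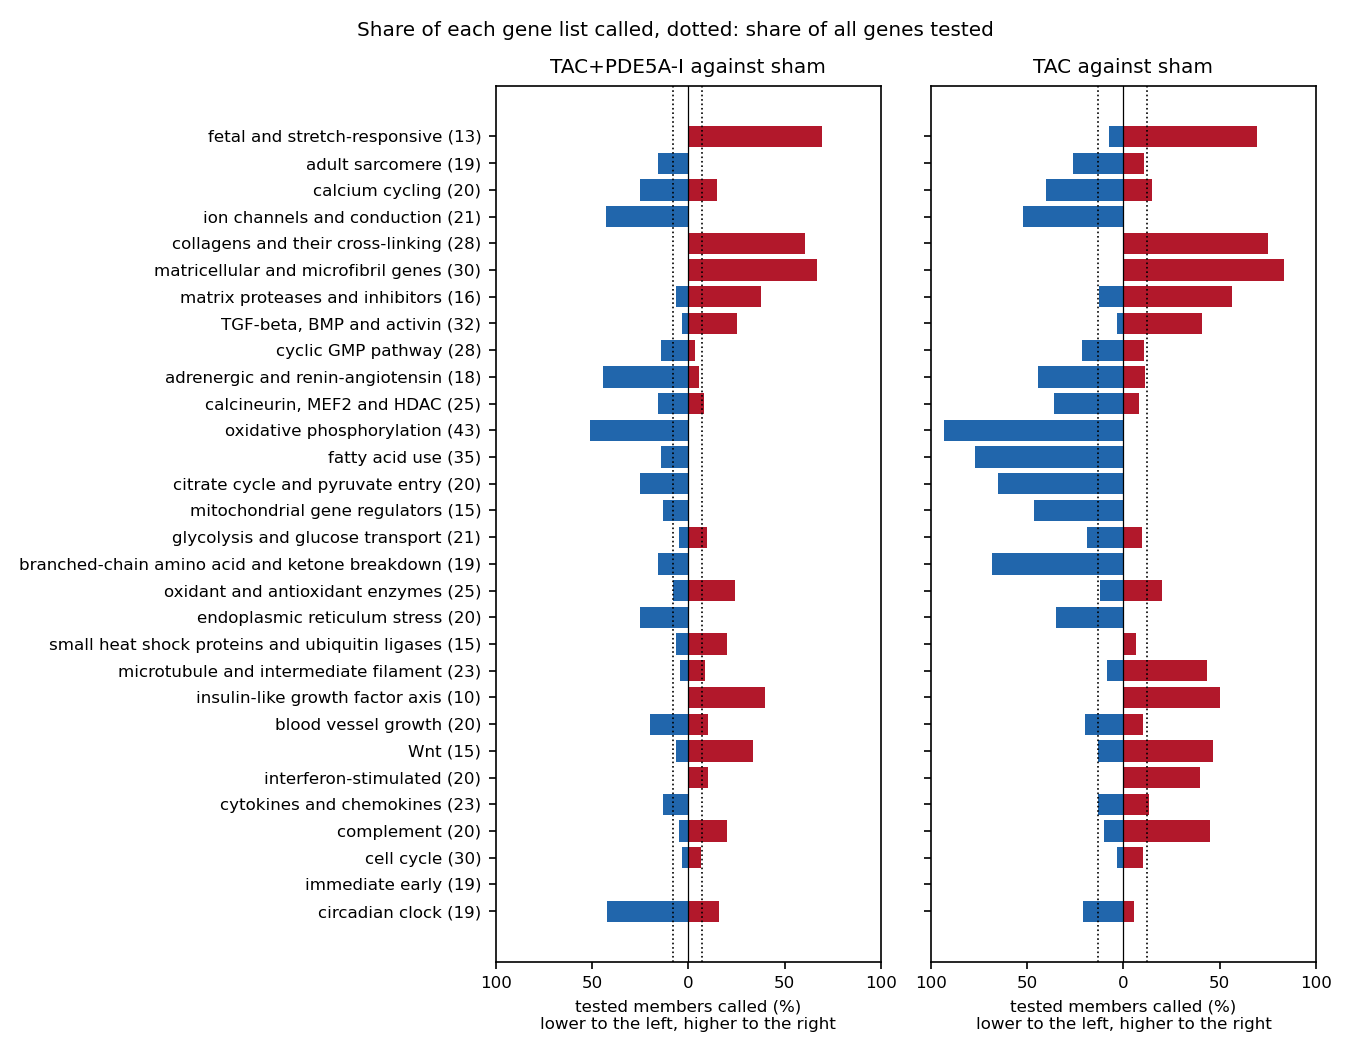
Share of the tested members of 30 gene lists called higher (right of 0) and lower (left of 0) in TAC+PDE5A-I against sham (left panel) and TAC against sham (right panel), with the number of tested members in brackets and the shares over all genes as dotted lines. The fetal list (9 of 13) and the 2 matrix lists (20 of 30 and 17 of 28) reach furthest to the right in the left panel, and the bars to the left for oxidative phosphorylation and fatty acid use are shorter under TAC+PDE5A-I than under TAC.

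The fetal and stretch-responsive genes were higher in TAC+PDE5A-I hearts as a group. Of 13 tested members, 9 rose and none fell, with a median log2 fold change of 1.31 where the median over all genes was -0.00. Over all genes 6.81% rose. In TAC against sham 9 members rose and 1 fell, with a median of 1.83. The 9 were the natriuretic peptides Nppa and Nppb, the contractile isoforms Myh7 and Acta1, and the muscle ankyrin repeat and Xin genes Ankrd1, Ankrd2, Ankrd23, Xirp1 and Xirp2. The count was 10 with TAC+PDE5A-I libraries 3 to 5 alone, 5 without library 4, and 4 with the ear tag term.

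Nppb encodes brain natriuretic peptide, a hormone of the stretched ventricle. Its levels were 635, 397, 898, 1140 and 716 CPM in TAC+PDE5A-I libraries 1 to 5, 899, 309, 864, 1226 and 503 CPM in TAC libraries, and 177, 190, 195, 146 and 140 CPM in sham libraries. Every TAC+PDE5A-I library stood above every sham library and the range lay within that of TAC. Nppb rose with a log2 fold change of 2.16 (SE 0.39, adjusted p = 0.00446), the same as in TAC (2.16), and the difference between TAC+PDE5A-I and TAC was -0.01 with a 95% interval of -0.78 to 0.77.

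Acta1 is skeletal alpha-actin, an isoform of the fetal heart (chromosome 8, 123891769 to 123894751, mm10). It stood at 1431, 2029, 7240, 4179 and 4115 CPM in TAC+PDE5A-I libraries, at 4168, 1119, 2853, 3505 and 2538 CPM in TAC libraries and at 305, 389, 435, 482 and 260 CPM in sham libraries. The groups did not overlap, and drug-treated libraries 3 and 4 lay above the TAC range. The log2 fold change was 3.34 (SE 0.64, adjusted p = 0.00606), against 2.92 in TAC, and the difference from TAC was 0.42 (95% interval -0.81 to 1.65).

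Ankrd1 and Ankrd23 encode stretch-responsive proteins bound to titin in the sarcomere. Ankrd1 (chromosome 19, 36111961 to 36120099) had 3818, 2899, 6347, 5960 and 4606 CPM in TAC+PDE5A-I libraries and 1018, 1419, 1478, 1446 and 1247 CPM in sham libraries. Both genes were higher in all 5 drug-treated hearts than in any sham heart, and for both the lowest of the 5 values came from libraries 1 and 2. Their log2 fold changes were 1.84 (SE 0.30) for Ankrd1 and 1.24 (SE 0.20) for Ankrd23, beside 2.02 and 1.17 in TAC.

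Nppa, which encodes atrial natriuretic peptide, stood at 1004, 544, 1192, 3748 and 1020 CPM in TAC+PDE5A-I libraries and at 59.8, 299, 157, 121 and 222 CPM in sham libraries. It rose with a log2 fold change of 3.13 (SE 0.78, adjusted p = 0.0166), and lost its call without library 4, the highest of the group (fold changes of 2.17 to 3.54 over all alternatives). Myh7 rose by 3.79 (SE 0.83, adjusted p = 0.00996), beside 4.56 in TAC, and the difference from TAC was -0.77 (95% interval -2.34 to 0.79). Within the ear tags in the 600s its mean was 5343 CPM in 3 TAC+PDE5A-I libraries and 219 CPM in 2 sham libraries. In the 2 libraries of the 500s it averaged 400 CPM, a log2 difference of 0.71 from all sham libraries that was not called.

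Promoter sequences are shown for Acta1, Nppb and Ankrd1, 3 of the 5 risen members whose promoter holds the M-CAT element CATTCC, the motif bound by TEAD factors (the others are Myh7 and Ankrd23). The windows are RefSeq's on GRCm38.p6, from 250 bases before to 50 after the gene's start, written 5′ to 3′ on the gene's strand with the element in capitals (GGAATG is the same element on the other strand). Of the 9 members that rose, 8 matched a promoter in the table, and the first listed window was used for each. The element was found in 5 of these 8 windows and in 14.7% of all 32851 windows, in a search of both strands.
Acta1 (chr8:123894726-123895025, - strand): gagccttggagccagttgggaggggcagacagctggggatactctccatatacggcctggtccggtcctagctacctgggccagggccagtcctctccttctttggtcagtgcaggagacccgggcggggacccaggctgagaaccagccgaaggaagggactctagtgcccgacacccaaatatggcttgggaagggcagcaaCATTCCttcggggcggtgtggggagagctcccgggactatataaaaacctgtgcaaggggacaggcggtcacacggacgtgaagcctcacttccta
Nppb (chr4:147985650-147985949, + strand): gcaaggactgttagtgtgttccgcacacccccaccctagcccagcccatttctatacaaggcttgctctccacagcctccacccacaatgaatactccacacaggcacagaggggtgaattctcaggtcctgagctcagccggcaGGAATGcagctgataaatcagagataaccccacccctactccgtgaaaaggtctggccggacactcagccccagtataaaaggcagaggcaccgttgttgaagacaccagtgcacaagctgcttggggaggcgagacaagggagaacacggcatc
Ankrd1 (chr19:36119795-36120094, - strand): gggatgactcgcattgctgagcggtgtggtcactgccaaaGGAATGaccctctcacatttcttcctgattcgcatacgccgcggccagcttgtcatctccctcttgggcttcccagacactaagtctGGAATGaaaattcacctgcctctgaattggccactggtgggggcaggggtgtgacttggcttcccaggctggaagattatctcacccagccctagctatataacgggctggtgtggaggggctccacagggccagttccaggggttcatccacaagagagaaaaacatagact
A match is a description of these letters and no test of TEAD binding was made.

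**Figure D2:**
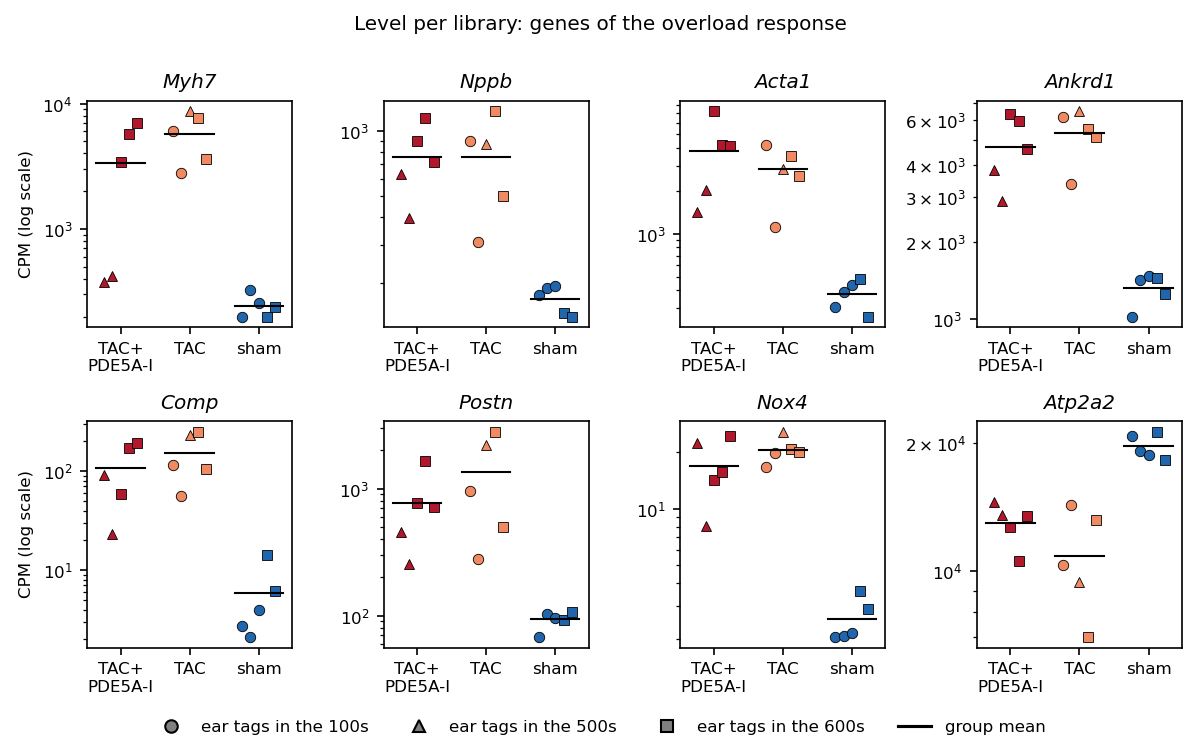
CPM on a log axis in each TAC+PDE5A-I, TAC and sham library for 8 genes, with symbols for the ear tag series and a line at the group mean. For Myh7, TAC+PDE5A-I libraries 1 and 2 (380 and 420 CPM) lie next to sham and libraries 3 to 5 within TAC, whereas for Nppb, Acta1, Ankrd1, Comp, Postn and Nox4 all 5 lie above sham, and for Atp2a2 all 5 lie below it.

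Matrix genes rose in most cases, where 6.81% of all genes rose (12.2% in TAC). Among 28 genes of fibrillar and network collagens and their cross-linking enzymes 17 rose and none fell (median 1.08, against 21 of 28 and a median of 1.40 in TAC). Among 30 genes of matricellular proteins, small proteoglycans and microfibrils 20 rose and none fell (median 1.51, against 25 of 30 and 1.82 in TAC). The collagen count was 4, 6, 5 and 5 without sham library 1, 2, 3 and 4, and 7, 3 and 5 without TAC+PDE5A-I library 3, 4 and 5. The matricellular count was 13 without sham library 1 and 11 without TAC+PDE5A-I library 4. With the ear tag term the counts were 1 and 6, and with TAC+PDE5A-I libraries 3 to 5 alone 21 and 24.

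Among the structural members, Col12a1 and Col8a2 rose most. Col12a1, a collagen that decorates fibril surfaces (chromosome 9, 79598991 to 79718831), stood at 44.8, 18.2, 73.5, 122 and 119 CPM in TAC+PDE5A-I libraries, at 97.95, 35.8, 213, 268 and 88.0 CPM in TAC libraries and at 3.59 to 7.91 CPM in sham libraries. It was above sham in all 5 drug-treated hearts, with a log2 fold change of 3.64 (SE 0.73, adjusted p = 0.0075) beside 4.53 in TAC. Col8a2, a short-chain collagen, rose by 3.82 (SE 0.89), Col8a1 by 2.12 (SE 0.51) and the cross-linking oxidase genes Lox and Loxl3 by 2.49 (SE 0.73) and 2.15 (SE 0.54). The main fibrillar collagens moved less: Col3a1 rose by 1.47 (SE 0.48). Col1a1, the chain of type I collagen, had 211, 108, 275, 350 and 373 CPM in TAC+PDE5A-I libraries and 56.3, 85.3, 78.8, 96.9 and 107 CPM in sham libraries, with no overlap, and its log2 fold change of 1.63 (SE 0.56) missed the threshold (adjusted p = 0.0533), whereas in TAC it was 1.90 (adjusted p = 0.0201).

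Matricellular proteins bind matrix and cell receptors without being load-bearing themselves. Comp, a pentameric thrombospondin of tendon and scar (chromosome 8, 70373558 to 70382066), stood at 92.4, 23.2, 58.3, 170 and 191 CPM in TAC+PDE5A-I libraries and at 2.76, 2.10, 3.99, 14.3 and 6.16 CPM in sham libraries. The lowest of the 5 drug-treated hearts, library 2, was above the highest sham heart, and the log2 fold change was 4.16 (SE 0.91, adjusted p = 0.00991). Thbs4, its thrombospondin relative, had 93.8, 27.5, 148, 223 and 177 CPM in TAC+PDE5A-I libraries and 5.86 to 16.2 CPM in sham libraries (log2 fold change 3.72, SE 0.71, against 4.51 in TAC). Cilp, a secreted cartilage matrix protein, had 397, 161, 467, 757 and 704 CPM in TAC+PDE5A-I libraries and 25.6 to 52.0 CPM in sham libraries (log2 fold change 3.62, SE 0.63, against 3.97 in TAC). For each of Comp, Thbs4 and Cilp library 2 was the lowest of the drug-treated hearts and the groups did not overlap.

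Postn (periostin, made by activated fibroblasts) stood at 457, 254, 764, 1643 and 720 CPM in TAC+PDE5A-I libraries, 952, 279, 2187, 2812 and 498 CPM in TAC libraries and 67.5 to 107 CPM in sham libraries (log2 fold change 3.04, SE 0.70, adjusted p = 0.0118). Every drug-treated library was above sham and, library 2 aside, within the TAC range, and the difference from TAC was -0.81 with a 95% interval of -2.16 to 0.54. Fmod, a small proteoglycan that binds collagen fibrils, rose by 3.90 (SE 0.95), with sham library 4 at 5.52 CPM and the other sham libraries at 0.265 to 1.71 CPM. The microfibril protein gene Mfap4 rose by 2.79 (SE 0.55) and Wisp2, a member of the CCN family, by 2.51 (SE 0.44). The elastin gene Eln (2.32, SE 0.51), the CCN gene Ctgf (2.30, SE 0.56) and the osteopontin gene Spp1 (2.46, SE 0.69) rose as well, with 2.08, 2.83 and 3.86 in TAC.

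Matrix genes moved together with the markers of activated fibroblasts, of which 11 of 12 rose in TAC+PDE5A-I hearts (median 2.66, against 11 of 12 and 3.67 in TAC). Of these 12 markers 6 are also in the matrix lists. Their summed level was 618 to 3329 CPM in TAC+PDE5A-I libraries and 232 to 342 CPM in sham libraries, again lowest in library 2. Acta2, the remaining marker and also one of smooth muscle, stood at 67.4 ± 26.4 CPM in TAC+PDE5A-I hearts and 104 ± 18.2 CPM in sham hearts and was not called. General fibroblast markers rose in 5 of 12 cases (summed level 3434 to 5676 CPM in TAC+PDE5A-I and 2765 to 3405 CPM in sham libraries), among them Pdgfra, the receptor that marks resident fibroblasts, at 0.59. The part of fibroblast content in the matrix result was not tested.

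Growth factor genes around TGF-beta rose in fewer cases. Over all genes 6.81% rose and 7.80% fell, and in TAC 12.2% and 13.0%. In the list of TGF-beta, BMP and activin genes 8 of 32 tested members rose and 1 fell, with a median of 0.35 (TAC: 13 and 1, median 0.45). The 8 were the ligands Tgfb2, Tgfb3, Inhbb, Gdf15 and Bmp4, the receptor Tgfbr1 and the latent TGF-beta binding proteins Ltbp2 and Ltbp4, and the co-receptor Tgfbr3 fell by 0.55. Without sham library 1, 2, 3 or 4 the rises numbered 3, 4, 4 and 4, and without TAC+PDE5A-I library 3, 4 or 5 they numbered 5, 2 and 4.

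Gdf15, a stress hormone of the TGF-beta family, had the largest rise of any named gene (log2 fold change 4.48, SE 0.99, adjusted p = 0.00996). It stood at 5.74, 4.06, 16.9, 42.3 and 4.50 CPM in TAC+PDE5A-I libraries, at 21.2, 3.37, 8.54, 26.5 and 2.62 CPM in TAC libraries and at 0.398 to 1.19 CPM in sham libraries. All drug-treated hearts were above sham, and library 4 was far above the other 4. Tgfb2 had 26.8, 14.0, 47.8, 45.1 and 34.7 CPM in TAC+PDE5A-I libraries and 9.76 to 12.5 CPM in sham libraries (log2 fold change 1.61, SE 0.40) and lost its call without library 4, with fold changes of 0.90 to 1.96 over all alternatives. Ltbp2, which anchors to elastic microfibrils, rose by 3.73 (SE 0.83), beside 4.53 in TAC.

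Secreted Wnt antagonists rose: Sfrp2 by 2.93 (SE 0.64), Dkk3 by 2.64 (SE 0.60), Frzb by 2.06 (SE 0.46) and Sfrp1 by 1.65 (SE 0.42, call lost without TAC+PDE5A-I library 4). With the receptor gene Fzd1 they made up the 5 rises among 15 tested Wnt genes, and the ligand gene Wnt5a fell by 0.58. Over all genes 6.81% rose and 7.80% fell. The rises numbered 3 without library 4, and the fall of Wnt5a was lost without any of sham libraries 1 to 4 or TAC+PDE5A-I libraries 3 to 5. Sfrp2 stood at 24.4, 9.27, 9.30, 16.5 and 35.8 CPM in TAC+PDE5A-I libraries and at 1.71 to 3.69 CPM in sham libraries, and here library 1, with its tag in the 500s, was the second highest of the group. In the insulin-like growth factor list 4 of 10 rose, the growth factor Igf1 (0.78) and its binding proteins Igfbp5 (1.16), Igfbp6 (1.38) and Igfbp7 (1.24). Without sham library 1 or 4 or TAC+PDE5A-I library 4 the count was 2 each time.

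Of 16 matrix proteases and inhibitors 6 rose and 1 fell (median 0.71, against 9 and 2 and a median of 0.82 in TAC). Over all genes 6.81% rose and 7.80% fell, and in TAC 12.2% and 13.0%. The rises were the metalloproteases Mmp2 (1.26, SE 0.34), Mmp14, Adamts2, Adam12 (1.42, SE 0.38) and Adam19 (1.37, SE 0.25) and the ADAMTS-like protein Adamtsl2 (2.30, SE 0.49), and Mmp15 fell by 0.47, a fall lost in 8 of the leave-one-out fits (without any sham library or TAC+PDE5A-I library 3, 4 or 5). The rises numbered 2 without sham library 1 or TAC+PDE5A-I library 4 and 3 without sham library 4 or TAC+PDE5A-I library 5.

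Adult contractile genes were called in few cases, and calcium-cycling genes in both directions. In the adult sarcomere list 3 of 19 fell and none rose (median -0.13), where 7.80% of all genes fell. Tcap, a Z-disc protein that caps titin, stood at 879, 981, 810, 510 and 745 CPM in TAC+PDE5A-I libraries and at 1767, 1459, 1483, 1388 and 1114 CPM in sham libraries (log2 fold change -0.88, SE 0.19, adjusted p = 0.00996). The groups did not overlap. The troponin gene Tnni3 fell by 0.65 (SE 0.16) and Myh6, the adult alpha myosin heavy chain, fell by 0.60 (SE 0.19). The call of Tnni3 ended without TAC+PDE5A-I library 4, and the list then held 1 fall. Myh6 lost its call without sham library 1, 2, 3 or 4 or TAC+PDE5A-I library 3, 4 or 5, with fold changes of -0.70 to -0.44 over all alternatives.

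In the calcium-cycling list 5 of 20 fell and 3 rose, where 7.80% of all genes fell and 6.81% rose. The falls were the calcium pump gene Atp2a2 (SERCA2), its inhibitor Pln, the release channel Ryr2, triadin (Trdn) and the calcium channel subunit Cacnb2. Atp2a2 (chromosome 5, 122453513 to 122502225) had 14560, 13580, 12690, 10570 and 13520 CPM in TAC+PDE5A-I libraries, 10350, 14290, 9432, 6995 and 13170 CPM in TAC libraries and 20860, 19220, 18800, 21320 and 18310 CPM in sham libraries. Every treated heart was below every sham heart. The log2 fold change was -0.60 (SE 0.18, adjusted p = 0.0316) beside -0.86 in TAC, and the difference from TAC was 0.26 (95% interval -0.11 to 0.63). The Atp2a2 call ended in the same 7 leave-one-out fits as that of Myh6, with fold changes of -0.67 to -0.48. The falls numbered 2 without sham library 1 or 4 or TAC+PDE5A-I library 4 and 3 without TAC+PDE5A-I library 3 or 5, and the rises 1 without library 4. Ryr2 fell by 0.67 (SE 0.15), while sorcin (Sri), a small calcium-binding partner of Ryr2, rose by 0.27 (SE 0.06) and the plasma membrane pump Atp2b4 by 0.42 (SE 0.10, call lost without library 4).

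Ion channel genes fell in 9 of 21 cases and rose in none (median -0.41), where 7.80% of all genes fell. In TAC 11 fell (median -0.52), where 13.0% of all genes fell. All 9 that fell in TAC+PDE5A-I hearts encode potassium channels or a channel subunit (Abcc9). They included the inward rectifiers Kcnj2 (-0.81, SE 0.18), Kcnj3 (-1.02, SE 0.29) and Kcnj5 (-1.04, SE 0.22) and the delayed rectifiers Kcnh2 (-0.88, SE 0.17) and Kcnq1 (-0.53, SE 0.12). Kcnh2, the hERG channel, had 54.3, 50.5, 33.7, 27.2 and 36.2 CPM in TAC+PDE5A-I libraries and 72.4, 80.6, 67.7, 77.1 and 75.3 CPM in sham libraries, so the 2 hearts of the 500s were nearest to sham. Kcnq1, the slow delayed rectifier, gave -0.29 in TAC without a call (adjusted p = 0.0694), and its difference between TAC+PDE5A-I and TAC was not called. The list count was 5 without sham library 1, 2 or 4 or TAC+PDE5A-I library 5, and 4 without TAC+PDE5A-I library 3 or 4. Markers of the cardiomyocyte itself fell in 5 of 12 cases (the genes Myh6, Tnni3, Ryr2, Atp2a2 and Pln already given), with a summed level of 74290 to 100200 CPM in TAC+PDE5A-I and 117300 to 133900 CPM in sham libraries. The part of cardiomyocyte content in the falls was not tested.

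In the mitochondrial lists of energy metabolism some genes fell and none rose, whereas glycolysis and creatine transfer held rises. Of 43 nuclear genes of oxidative phosphorylation 22 fell and none rose (median -0.38), while 35 of the 43 had no overlap between the groups. Over all genes 7.80% fell and 15.6% had no overlap. In TAC 40 of the 43 fell, with a median of -0.43, where 13.0% of all genes fell. The falls included subunits of complexes I to IV and of ATP synthase, and Cox7b, a subunit of cytochrome oxidase, was the clearest: 447, 465, 390, 419 and 444 CPM in TAC+PDE5A-I libraries against 702, 620, 698, 652 and 593 CPM in sham libraries. Its log2 fold change was -0.59 (SE 0.12, adjusted p = 0.00652), and libraries 1 and 2 did not stand apart. The ATP synthase genes Atp5o and Atp5c1 fell by 0.50 and 0.49 (SE 0.12 each). The list count was 5, 9, 8 and 6 without sham library 1, 2, 3 and 4, 5, 4 and 6 without TAC+PDE5A-I library 3, 4 and 5, and 0 with the ear tag term. Within the tags in the 600s the median over the 43 genes was -0.43. That value is a log2 ratio of mean CPM in 3 TAC+PDE5A-I and 2 sham libraries, without a test. The -0.38 from all libraries is a median of edgeR fold changes.

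Fatty acid genes were lower with fewer calls: 5 of 35 fell and none rose, with a median of -0.42. Of the 35, 21 did not overlap between the groups, where 7.80% of all genes fell and 15.6% did not overlap. In TAC 27 of 35 fell (median -0.59). The 5 were the transporter Cd36 (-0.37, SE 0.12), lipoprotein lipase Lpl (-0.56, SE 0.17), the isomerase Ech1 (-0.75, SE 0.24) and the electron transfer flavoprotein genes Etfa and Etfb. Etfb had 345, 340, 263, 229 and 288 CPM in TAC+PDE5A-I libraries, 246, 353, 215, 187 and 338 CPM in TAC libraries and 465 to 539 CPM in sham libraries (log2 fold change -0.77, SE 0.18, adjusted p = 0.0137). Without TAC+PDE5A-I library 4 none of the 35 was called, and without sham library 1, 2, 3 or 4 or TAC+PDE5A-I library 3 or 5 only 1 was. A fit to the 2 groups alone, which takes the spread from these 10 libraries, called 28 of the 35 lower.

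Citrate cycle and pyruvate entry genes fell in 5 of 20 cases, against 13 of 20 in TAC (medians -0.32 and -0.40). Cs, Idh3a, Idh3g and Suclg1 were among the 5, from -0.35 to -0.46. Regulators of mitochondrial genes followed at a lower count, 2 of 15 against 7 of 15 in TAC (medians -0.16 and -0.28). The coactivator Ppargc1a fell by 0.53 (SE 0.16) and the nuclear receptor Esrra by 0.35 (SE 0.10). Branched-chain amino acid and ketone genes fell in 3 of 19 cases, against 13 of 19 in TAC (medians -0.31 and -0.42). The falls were the phosphatase Ppm1k, Mccc1 and Acadsb. No member of these lists was called between TAC+PDE5A-I and TAC. Without sham library 1 or 4 or TAC+PDE5A-I library 3 or 4 none of the citrate cycle genes was called, and 2, 2 and 1 were without sham library 2, sham library 3 or TAC+PDE5A-I library 5. Both regulators lost their call without any of sham libraries 1 to 4 and without TAC+PDE5A-I library 4 or 5, and Ppargc1a also without library 3. The amino acid count was 1 in each of 7 leave-one-out fits (sham libraries 1 to 5, TAC+PDE5A-I libraries 3 and 5) and 0 without TAC+PDE5A-I library 4. Of all genes 6.81% rose and 7.80% fell, beside 12.2% and 13.0% in TAC. In glycolysis 2 of 21 rose, the phosphofructokinase Pfkp (0.86, SE 0.27) and the fructose-2,6-bisphosphate enzyme Pfkfb2 (0.40, SE 0.14), and the related Pfkfb1 fell by 1.91 (SE 0.45). Both rises were lost without any of sham libraries 1 to 4 or TAC+PDE5A-I library 3 or 4, and Pfkfb2 lost its call in every leave-one-out fit. Of 6 genes of creatine energy transfer only the brain-type creatine kinase Ckb was called; it rose by 0.56 (SE 0.16), and it lost its call without sham library 2 or 3 or TAC+PDE5A-I library 3 or 4.

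The transcript of the drug's target was not called against sham. Pde5a (chromosome 3, 122728947 to 122859374) stood at 11.5, 10.9, 9.92, 12.2 and 11.6 CPM in TAC+PDE5A-I libraries and at 10.3, 11.98, 10.5, 8.57 and 10.96 CPM in sham libraries, with overlapping ranges (log2 fold change 0.11, SE 0.11, adjusted p = 0.515). Since sildenafil inhibits the enzyme, a transcript level is no check of the treatment. In the cyclic GMP list 4 of 28 fell and 1 rose (TAC: 6 and 3), where 7.80% of all genes fell and 6.81% rose. Rgs2, the PKG target, had 20.6, 22.9, 12.8, 11.5 and 17.1 CPM in TAC+PDE5A-I libraries, 12.5, 23.8, 10.8, 10.2 and 16.6 CPM in TAC libraries and 35.9 to 49.4 CPM in sham libraries. Its log2 fold change was -1.33 (SE 0.27, adjusted p = 0.00798), and every drug-treated heart lay within the TAC range.

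Corin, the protease that activates pro-atrial natriuretic peptide, had 255, 205, 187, 182 and 221 CPM in TAC+PDE5A-I libraries and 315 to 357 CPM in sham libraries (log2 fold change -0.69, SE 0.11, adjusted p = 0.00313). The other falls were Furin, which cleaves pro-brain natriuretic peptide, and the phosphodiesterase Pde3a (-0.47, SE 0.14), and the kinase gene Prkg1 rose by 0.29 (SE 0.08). The receptor Npr1 (0.08, SE 0.11) and Pde9a (0.37, SE 0.27) were not called. The falls numbered 2 without sham library 2, 3 or 4 or TAC+PDE5A-I library 3 or 4. Prkg1 lost its call without sham library 4 or TAC+PDE5A-I library 3 or 5, and Pde3a without any of sham libraries 1 to 4 or TAC+PDE5A-I library 1, 3 or 4.

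Receptors and regulators of the adrenergic and renin-angiotensin systems fell in 8 of 18 cases and 1 rose, as against 8 and 2 in TAC. Over all genes 7.80% fell and 6.81% rose, and in TAC 13.0% and 12.2%. The falls included the receptors Adra1b, Adrb1 (-0.41, SE 0.13) and Agtr1a (-0.69, SE 0.18), the mineralocorticoid receptor Nr3c2 (-0.83, SE 0.16), the phosphodiesterase Pde4d (-0.80, SE 0.16) and angiotensinogen (Agt, -1.15, SE 0.28). The angiotensin-converting enzyme gene Ace rose by 1.32 (SE 0.30), at 204 ± 64.8 CPM in TAC+PDE5A-I hearts and 81.5 ± 6.62 CPM in sham hearts (SD, n = 5 each). The falls numbered 5 without sham library 4 or TAC+PDE5A-I library 3 and 2 without TAC+PDE5A-I library 4, where Agt was no longer called.

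Among calcineurin, MEF2 and cardiac transcription factor genes 2 of 25 rose and 4 fell, where 6.81% of all genes rose and 7.80% fell. Rcan1, a calcineurin target that feeds back on it, had 144, 197, 443, 745 and 335 CPM in TAC+PDE5A-I libraries, 404, 116, 386, 451 and 200 CPM in TAC libraries and 80.9 to 131 CPM in sham libraries (log2 fold change 1.90, SE 0.42, adjusted p = 0.00968). Libraries 1 and 2 were just above the sham range and library 4 above the TAC range. Gata4 rose by 0.31 (SE 0.08) and Tbx5, a transcription factor of the heart chambers, fell by 0.90 (SE 0.16), with Gata6, Hand2 and Myocd (-0.44, SE 0.13). The falls numbered 1 without sham library 1 or 4 or TAC+PDE5A-I library 3 or 4 and 2 without sham library 2 or 3.

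Nox4, an NADPH oxidase that makes hydrogen peroxide, rose in every TAC+PDE5A-I heart. It stood at 22.4, 8.05, 14.2, 15.7 and 24.4 CPM there, at 16.8, 19.99, 25.9, 20.8 and 20 CPM in TAC libraries and at 2.04 to 3.64 CPM in sham libraries (log2 fold change 2.71, SE 0.47, adjusted p = 0.00428). Library 2 was the lowest and library 1 among the highest, so its levels did not divide by ear tag. Of 25 oxidant and antioxidant genes 6 rose and 2 fell, where 6.81% of all genes rose and 7.80% fell. Among the rises were the peroxidase genes Gpx1 (0.45, SE 0.14) and Gpx3. Superoxide dismutase Sod1 fell by 0.37 (SE 0.10) and metallothionein Mt1 by 0.59 (SE 0.16). The rises numbered 3 without sham library 1, 2, 4 or 5 or TAC+PDE5A-I library 3, and 2 without TAC+PDE5A-I library 4. Without that library neither fall was called, and 1 was without sham library 1, 2 or 3 or TAC+PDE5A-I library 5.

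In the endoplasmic reticulum stress list 5 of 20 fell and none rose, where 7.80% of all genes fell (TAC: 7 falls and 13.0%). They were 4 of the 12 chaperone genes, Hspa5 (BiP), Hsp90b1, Canx and Manf, and Herpud1, 1 of the 8 sensors and factors. Hspa5 had 503, 526, 506, 484 and 447 CPM in TAC+PDE5A-I libraries and 716, 796, 691, 614 and 900 CPM in sham libraries (log2 fold change -0.59, SE 0.11, adjusted p = 0.00509). Values of the 5 drug-treated hearts were close to each other, and libraries 1 and 2 did not stand apart. Among small heat shock proteins and muscle ubiquitin ligases Hspb6, Hspb8 (0.46, SE 0.11) and Bag3 (0.26, SE 0.09) rose and Trim55 fell by 0.30 (SE 0.09). Bag3 lost its call in 8 leave-one-out fits and Trim55 in 5, with fold changes of 0.19 to 0.33 and of -0.32 to -0.25 over all alternatives.

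Immune and vascular lists differed in their share of calls, where 14.6% of all genes were called. Among 23 cytokine and chemokine genes edgeR called no rise (8 had an unadjusted p under 0.05 in either direction), and Ccl11 (eotaxin), Ccl6 and Cxcl1 fell. Ccl6 had 9.81, 9.46, 8.21, 9.40 and 4.50 CPM in TAC+PDE5A-I libraries and 12.4, 18.6, 22.9, 17.2 and 23.8 CPM in sham libraries (log2 fold change -1.20, SE 0.21, adjusted p = 0.00433). Cxcl1 averaged 0.713 ± 0.187 CPM in TAC+PDE5A-I hearts and 5.38 ± 9.96 CPM in sham hearts, and its call ended in 7 leave-one-out fits (without sham library 2 or 3 or any TAC+PDE5A-I library). Interferon-stimulated genes rose in 2 of 20 cases, Oasl2 (0.72) and Rtp4 (0.53), against 8 of 20 in TAC. Of all genes 6.81% rose, and 12.2% in TAC. The list medians were close (0.45, and 0.51 in TAC), with 19 of 20 members above sham in each comparison. None was called between TAC+PDE5A-I and TAC. Oasl2 lost its call without any of sham libraries 1 to 4 or TAC+PDE5A-I libraries 3 to 5 and Rtp4 without sham library 1 or 2, so that the count was 0 without either of these sham libraries. Complement genes rose in 4 of 20 cases, among them the protease genes C1ra (0.74, SE 0.23) and C1s1 (0.59, SE 0.15), and 1 fell. The 4 became 1 without sham library 1 or TAC+PDE5A-I library 4 and 2 without sham library 4.

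In blood vessel growth 2 of 20 rose and 4 fell, where 6.81% of all genes rose and 7.80% fell. The rises were Vegfa and Hif1a (0.45, SE 0.12). The falls were Vegfb, Pgf, Fgf16 (-0.98, SE 0.21) and Angpt1, the ligand of the Tie2 receptor. Angpt1 had 42.7, 41.0, 13.8, 13.8 and 22.0 CPM in TAC+PDE5A-I libraries and 52.3 to 103 CPM in sham libraries (log2 fold change -1.44, SE 0.35, adjusted p = 0.0157), nearest to sham in libraries 1 and 2. Its call ended without TAC+PDE5A-I library 4. The falls numbered 1 without that library and 2 without any of sham libraries 1 to 4 or TAC+PDE5A-I library 2, 3 or 5, and neither rise was called without sham library 1 or TAC+PDE5A-I library 4. No macrophage marker (11 tested, 1 with an unadjusted p under 0.05) and no smooth muscle marker (8 tested, 2 under 0.05) was called by edgeR, and 1 of 12 endothelial markers, Fabp4, fell. Of 7 tested B cell markers 4 rose, at levels near 1 CPM (Cd79b 1.60 ± 0.288 CPM in TAC+PDE5A-I hearts and 0.640 ± 0.134 CPM in sham hearts).

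In the cell cycle list 2 of 30 rose and 1 fell, where 6.81% of all genes rose and 7.80% fell. The list median was 0.61 (0.14 in TAC), with 22 of 30 above sham and 11 at an unadjusted p under 0.05. The rises were the mitotic kinase Aurka (0.86, SE 0.21) and the inhibitor Cdkn2b (1.26, SE 0.29), and Cenpf, a kinetochore protein, fell by 1.82 (SE 0.50). The rises numbered 7 without sham library 5 and 1 without TAC+PDE5A-I library 4, where Aurka lost its call. Cenpf lost its call without sham library 1 or TAC+PDE5A-I library 3, 4 or 5. None of 19 immediate early genes was called by edgeR, where 3 had an unadjusted p under 0.05, and DESeq2 called 1 higher and 2 lower. Without sham library 2 edgeR called 1. Of 23 microtubule and intermediate filament genes 2 rose, the tubulin tyrosine ligase Ttl (0.19, SE 0.05) and synemin (Synm, 0.57, SE 0.14). Tuba4a fell by 0.79 (SE 0.22). In TAC 10 rose and 2 fell, where 12.2% of all genes rose and 13.0% fell. The list medians were close, 0.29 in TAC+PDE5A-I and 0.32 in TAC, and no member was called between TAC+PDE5A-I and TAC. Ttl lost its call without TAC+PDE5A-I library 4, and Tuba4a without sham library 1, 3 or 4 or TAC+PDE5A-I library 3, 4 or 5.

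Clock genes differed from sham in 11 of 19 cases, 3 higher and 8 lower, beside 1 higher and 4 lower in TAC. Over all genes 14.6% were called, and 25.2% in TAC. The core clock is a loop in which Arntl (BMAL1) with Clock or Npas2 drives the Per and Cry genes, which repress it, and whose outputs include the transcription factors Dbp, Tef and Hlf. Arntl stood at 14.4, 18.7, 25.4, 35.3 and 39.2 CPM in TAC+PDE5A-I libraries, at 26.4, 20.3, 13.3, 34.0 and 10.4 CPM in TAC libraries and at 4.80, 7.43, 7.49, 9.45 and 15.5 CPM in sham libraries (log2 fold change 1.57, SE 0.40, adjusted p = 0.017). The groups overlapped only in that library 1 was below sham library 5. Dbp had 49.8, 38.1, 28.1, 14.8 and 11.01 CPM in TAC+PDE5A-I libraries and 108, 94.1, 91.4, 81.1 and 56.1 CPM in sham libraries (log2 fold change -1.60, SE 0.38, adjusted p = 0.0138). In both genes libraries 1 and 2 were the nearest to sham, and library 5 of sham was the nearest to the drug-treated hearts.

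Npas2 rose by 1.49 (SE 0.35) and Nfil3, a repressor of the same output genes, by 0.77 (SE 0.25). Cry2 fell by 0.68 (SE 0.16), Per2 by 1.40 (SE 0.42), Per3 by 1.20 (SE 0.32), Hlf by 1.31 (SE 0.34) and Ciart, a repressor of BMAL1, by 1.81 (SE 0.50), as did Nr1d2 and Tef. The falls numbered 2 without sham library 1 or TAC+PDE5A-I library 3, 4 or 5, 5 without sham library 2 and 4 without sham library 3. Without TAC+PDE5A-I library 4 only 1 of the rises was called, and Arntl was not. With the ear tag term neither rises nor falls were called. No difference between TAC+PDE5A-I and TAC was called in this list. The sources used here do not state the time of day at which hearts were collected, and its part in the clock result was not tested.

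**Figure D3:**
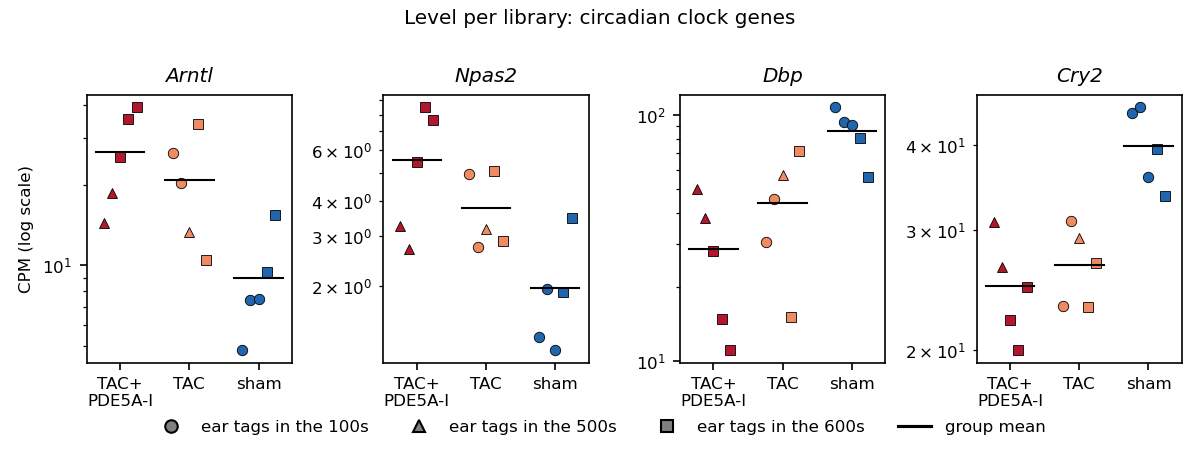
CPM on a log axis of 4 clock genes in each TAC+PDE5A-I, TAC and sham library, with symbols for the ear tag series and a line at the group mean. Arntl and Npas2 are higher and Dbp and Cry2 lower in TAC+PDE5A-I than in sham, with libraries 1 and 2 (triangles) nearest to sham for all 4 genes.

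The promoters of Ciart and Per3 are shown because their RefSeq windows (GRCm38.p6, 250 bases before to 50 after the start, on the gene's strand) hold repeated clock elements. These 2 genes were chosen after their values were seen. The E-box CACGTG, bound by BMAL1 with its partners, occurs 3 times in Ciart, and the D-box TTATGTAA, bound by Dbp, Tef and Hlf, occurs 2 times in Per3. Elements are in capitals, and both strands were searched.
Ciart (chr3:95882179-95882478, - strand): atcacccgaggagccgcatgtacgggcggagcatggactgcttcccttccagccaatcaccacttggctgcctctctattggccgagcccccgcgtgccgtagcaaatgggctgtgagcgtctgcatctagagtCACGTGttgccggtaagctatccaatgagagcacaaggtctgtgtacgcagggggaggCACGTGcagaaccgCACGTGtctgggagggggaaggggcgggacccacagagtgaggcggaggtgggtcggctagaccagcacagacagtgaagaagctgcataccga
Per3 (chr4:151044616-151044915, - strand): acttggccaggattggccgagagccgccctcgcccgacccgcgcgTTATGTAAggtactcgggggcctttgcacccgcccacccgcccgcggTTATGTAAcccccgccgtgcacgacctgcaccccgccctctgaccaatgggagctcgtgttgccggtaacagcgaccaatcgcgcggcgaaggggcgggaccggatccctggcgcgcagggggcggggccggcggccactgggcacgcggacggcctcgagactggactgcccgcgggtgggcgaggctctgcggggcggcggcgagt
Of the 11 clock genes called, 10 matched a window. The E-box was found in 2 of the 10 and in 7.15% of all 32851 windows, the D-box in 1 and in 0.938%, and the ROR element AGGTCA in 2 and in 16.3%.

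The 12 largest rises without overlap were Gdf15, Tnmd, Comp, Fmod, Col8a2, Myh7, Ltbp2, Thbs4, Col12a1, Cilp, Frem1 and Drd1a, with log2 fold changes of 4.48 down to 3.56. Tnmd, the tendon protein tenomodulin, stood at 0.825, 0.365, 2.74, 2.87 and 5.56 CPM in TAC+PDE5A-I libraries and at 0 to 0.348 CPM in sham libraries. Frem1, a basement membrane protein, had 3.00, 1.87, 13.7, 13.2 and 8.15 CPM in TAC+PDE5A-I libraries and 0.465 to 0.782 CPM in sham libraries. The dopamine receptor gene Drd1a had 0.632, 0.234, 1.64, 2.60 and 0.843 CPM in TAC+PDE5A-I libraries and 0.0378 to 0.186 CPM in sham libraries. In all 3 genes library 2 was the lowest drug-treated heart and still above every sham heart.

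Among the 12 largest falls was Cyp1a1. This gene, a cytochrome P450 induced through the aryl hydrocarbon receptor, gave 0, 2, 0, 0 and 0 counts in TAC+PDE5A-I libraries (0.0521 CPM in library 2), while sham libraries had 2.12, 1.75, 5.96, 3.27 and 0.813 CPM. Its 2 counts over the group against 410 in sham make the level 246-fold lower (exact 95% interval 67.8 to 2040, counting error only), and TAC libraries, at 0 to 0.898 CPM, overlapped both groups. The water channel gene Aqp4 had 2.03, 1.12, 0.255, 0.488 and 0.506 CPM in TAC+PDE5A-I libraries and 5.55 to 10.2 CPM in sham libraries (log2 fold change -3.08, SE 0.56, adjusted p = 0.00509). The chemokine gene Ccl11 had 0.0542 to 0.521 CPM in TAC+PDE5A-I libraries and 1.66 to 3.47 CPM in sham libraries (log2 fold change -3.01, SE 0.69). Sv2a, a synaptic vesicle protein, fell by 1.73 (SE 0.29) and the ankyrin repeat gene Ankrd63 by 2.16 (SE 0.45). Tll2 (-2.34), Rp1 (-2.03), Helt (-1.89) and the thioesterase Acot1 (-1.78) lost their call without TAC+PDE5A-I library 4 and, Acot1 aside, without library 5. All but Tll2 also lost it without sham library 4 or TAC+PDE5A-I library 3, Rp1 and Helt without sham library 1, Rp1 without sham library 2 or 5, Helt without sham library 3, and Rp1 and Helt without TAC+PDE5A-I library 1. Acot1 has close paralogs, so its reads may be shared with them. Retnla (-2.72) and Pfkfb1 (-1.91) were also among the 12 largest falls.

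**Figure D4:**
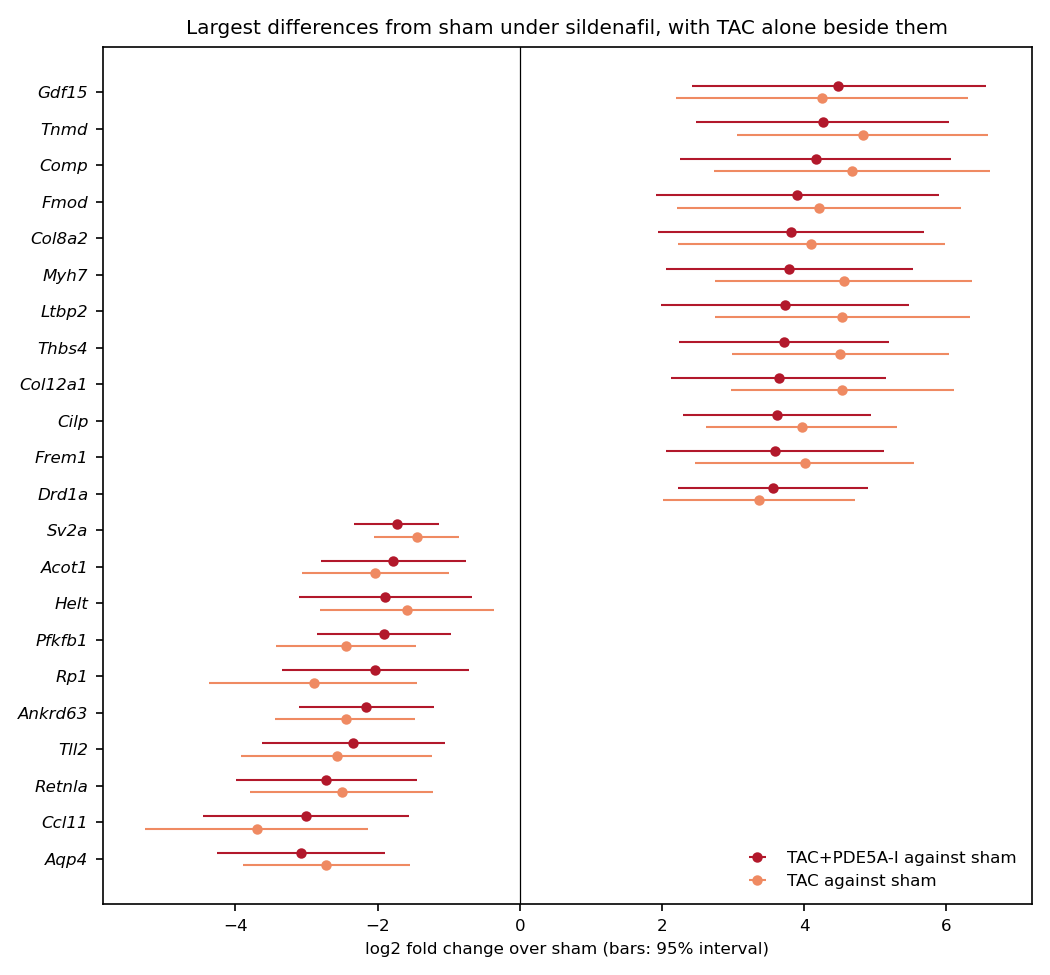
Log2 fold change over sham with its 95% interval in TAC+PDE5A-I hearts and in TAC hearts for 22 genes among those with the largest differences from sham (Cyp1a1, with 2 counts in the TAC+PDE5A-I group, is left out). Gdf15 leads with 4.48 in TAC+PDE5A-I and 4.25 in TAC, and the intervals of the 2 comparisons overlap for every gene drawn.

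Direct comparison with TAC separated few genes. St8sia1, a sialyltransferase that makes ganglioside GD3 (chromosome 6, 142821545 to 142964452), stood at 1.24, 1.88, 3.94, 4.74 and 4.05 CPM in TAC+PDE5A-I libraries, at 1.17, 0.539, 0.803, 0.460 and 0.393 CPM in TAC libraries and at 0.643, 0.596, 0.521, 0.398 and 0.310 CPM in sham libraries. All 5 drug-treated hearts were above all others, by the least in library 1. The log2 fold change was 2.68 over sham (SE 0.37, adjusted p = 0.00159) and 2.22 over TAC (95% interval 1.47 to 2.98, adjusted p = 0.0337). The call against TAC held with the ear tag term (adjusted p = 0.0148) and ended without TAC library 2, 3, 4 or 5 or TAC+PDE5A-I library 3, 4 or 5 (adjusted p between 0.0979 and 0.181), in the fit to the 2 groups alone (adjusted p = 0.834) and in that fit with a replicate block (adjusted p = 0.475). DESeq2 gave 2.35e-05, and the fold change was 2.03 to 2.52 over all these fits.

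Among genes called over sham, those with a TAC value nearest to 0 were picked out. Papln, a matrix glycoprotein of the ADAMTS-like family, had 27.9, 31.0, 27.6, 32.7 and 29.3 CPM in TAC+PDE5A-I libraries, 29.4, 15.6, 17.3, 18.9 and 21.3 CPM in TAC libraries and 18.4, 23.1, 18.6, 15.2 and 23.9 CPM in sham libraries. It rose by 0.58 over sham (SE 0.17, adjusted p = 0.0282), with 0.05 in TAC. The call was lost in the fits that left out sham 1, 3 or 4 or TAC+PDE5A-I 4 or 5 (fold changes 0.50 to 0.66). Its difference from TAC, 0.53 with a 95% interval of 0.18 to 0.88, was not called. Other genes of this kind were Fbxo18, Rpl6, Anapc5 and Rpl14, which fell by 0.13 to 0.18. Of these 4 only Anapc5 (0.18) kept its call in every leave-one-out fit, and the ribosomal protein genes have near-identical pseudogenes that may share their reads.

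Hspb6 (Hsp20, a small heat shock protein that PKA and PKG phosphorylate) had 389, 392, 623, 529 and 552 CPM in TAC+PDE5A-I libraries, 420, 323, 366, 403 and 386 CPM in TAC libraries and 327, 311, 284, 371 and 274 CPM in sham libraries. It was higher than sham in every drug-treated heart, and libraries 3 to 5 were above all TAC hearts while libraries 1 and 2 lay among them. Its log2 fold change over sham was 0.66 (SE 0.14, adjusted p = 0.00784), beside 0.28 in TAC (adjusted p = 0.132), and its difference from TAC, 0.39 (95% interval 0.11 to 0.67), was not called. Vegfa, the vascular endothelial growth factor, had 241, 284, 273, 333 and 259 CPM in TAC+PDE5A-I libraries, 285, 204, 201, 250 and 213 CPM in TAC libraries and 191, 189, 227, 214 and 243 CPM in sham libraries. It rose by 0.39 over sham (SE 0.10, adjusted p = 0.0196), with 0.11 in TAC, and its call ended without sham library 1 or TAC+PDE5A-I library 4 (fold changes 0.31 to 0.45). The 95% interval of its difference from TAC was 0.06 to 0.48, without a call.

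**Figure D5:**
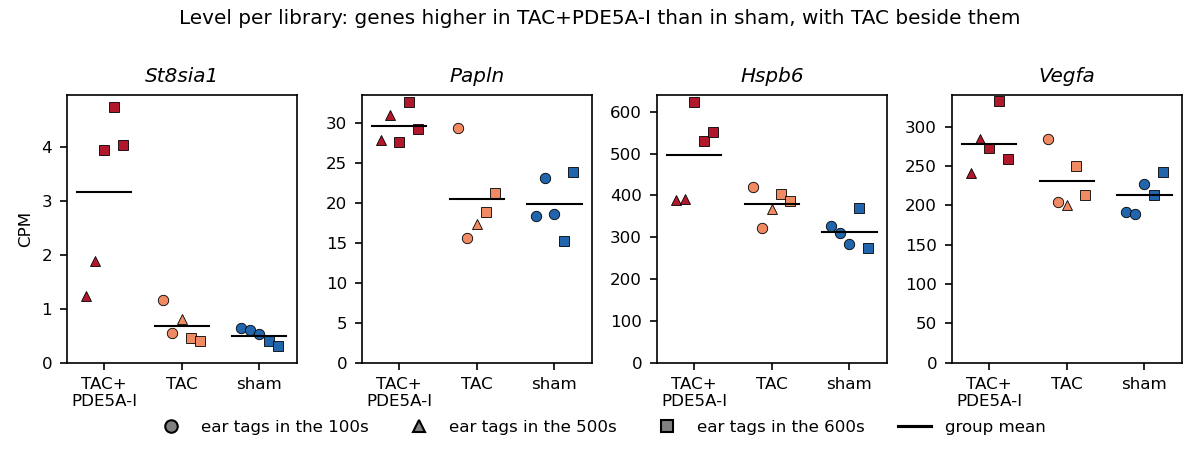
CPM in each TAC+PDE5A-I, TAC and sham library for St8sia1, Papln, Hspb6 and Vegfa, with symbols for the ear tag series and a line at the group mean. St8sia1 is at 1.24 CPM or more in every TAC+PDE5A-I library and at 1.17 CPM or less in every TAC and sham library, and the other 3 genes overlap with TAC.

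Over whole lists, the position of TAC+PDE5A-I relative to TAC was small and uneven. Members were above TAC in 35 of 35 fatty acid genes (median difference 0.15), 37 of 43 oxidative phosphorylation genes (0.05), 19 of 20 citrate cycle genes (0.09), 14 of 15 mitochondrial regulators (0.10) and 17 of 19 branched-chain amino acid and ketone genes (0.14), where 48.9% of all genes were above TAC. In the activated fibroblast markers 0 of 12 were above TAC (median difference -0.54), and in the matricellular list 4 of 30 (-0.25) and the collagen list 6 of 28 (-0.27). edgeR called none of these members against TAC, and 5 had an unadjusted p under 0.05: 2 in the matricellular list and 1 each among fatty acid genes, mitochondrial regulators and activated fibroblast markers. The lists were chosen with the TAC response known, their genes vary together, and the TAC libraries enter both comparisons, so these counts are a description.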

How the data were processed

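Flash-frozen left ventricle was sequenced as stranded total RNA, per the labels' protocols. The authors deposited expected counts per gene, unnormalized, in 1 merged table of 24054 rows that its title credits to RSEM and where 19% of values have decimals. The submitters' processing notes name, without a role for each, the build mm10 and the tools RSEM 1.3.0, HISAT2 2.0.5, DESeq2 1.18.1 and CASAVA 1.8.4, and the annotation was not given in the sources used here. Symbols damaged into dates (27 rows) were kept in the fit and left unnamed.

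Counts were rounded, filtered with filterByExpr, scaled by TMM and fitted over all 21 libraries with edgeR 4.0.16 (robust glmQLFit, glmQLFTest) in R 4.3.3, with 1 mean per group. Totals were 26.73 to 36.48 M counts in TAC+PDE5A-I libraries and 25.86 to 40.99 M in sham libraries. DESeq2 1.42.0, other scalings and filters, the ear tag series as a term, a replicate block, a fit to 2 groups and each library left out were alternatives. Those using only TAC+PDE5A-I libraries 3 to 5, or 1 and 2, were chosen after seeing the data. The fit was tested on simulated data. Intervals for single counts cover counting error only.

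Genes named are the 12 largest rises and 12 largest falls that had no overlap and averaged 1 CPM or more in the higher group, up to 4 called members of each list by adjusted p, a fixed set, genes called against TAC and the 6 called genes least changed by TAC. Other list members are named to complete a count. Some genes named by the rule are not reported here. The members and gene lists were chosen with earlier results of these data known. Gene coordinates are from GENCODE M21 (GRCm38).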

Additional observations from a re-analysis of the deposited data

Results flagged for a closer look

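Among 168 groups of 5 libraries (levels of 54 genes, and 2 measures of the libraries), 8 held 1 library far from the other 4. Chance alone passes the limit used in about 5% of groups, which is about the number found here. In TAC+PDE5A-I hearts Nppa stood at 3748 CPM in library 4 and at 544 to 1192 CPM in the others, Agt at 3.39 CPM in library 2 and at 1.46 to 1.97 CPM in the others, and Cyp1a1 at 0.0521 CPM in library 2 and at 0 in the others. In sham hearts Fmod stood at 5.52 CPM in library 4 and at 0.265 to 1.71 CPM in the others. Total counts stood apart in TAC+PDE5A-I library 3 (26.73 M, the others 35.65 to 36.48 M), TAC library 2 (22.67 M, the others 28.4 to 30.49 M) and sham library 4 (40.99 M, the others 25.86 to 29.04 M). The share of the ribosomal RNA precursor Rn45s was 0.2277% in TAC+PDE5A-I library 5 and 0.264% to 0.275% in the others. St8sia1 differed between TAC+PDE5A-I and TAC by a log2 fold change of 2.22 in the direct test of that difference.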

How the results depend on the processing

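No called gene changed direction under the alternatives, while Pde9a (-0.08) and Npr1 (-0.04), which were not called, changed sign with TAC+PDE5A-I libraries 1 and 2 alone. Of the recomputed fold changes of single named genes, 2074 kept their side of the threshold, 557 lost their call and 5, all of Col1a1, gained one. Counts of list members moved both ways: the fit to the 2 groups alone gave 28 falls among fatty acid genes and 42 in oxidative phosphorylation, and the ear tag model gave 0 in both. When the ear tag series was added to the model, TAC+PDE5A-I against sham gave 276 calls (140 higher, 136 lower) and TAC+PDE5A-I against TAC 1 call (1 higher). A fit to the 2 groups alone gave 3440 calls against sham (1744 higher, 1696 lower) and 0 against TAC (0 higher), and DESeq2 gave 8 against TAC (6 higher, 2 lower). TAC+PDE5A-I libraries 1 and 2 alone gave 0 calls against sham (0 higher, 0 lower). Leaving out 1 library at a time gave 580 to 2274 calls in TAC+PDE5A-I against sham (315 to 1141 higher, 265 to 1133 lower), 1781 to 4440 in TAC against sham (936 to 2219 higher, 845 to 2221 lower) and 0 to 2 in TAC+PDE5A-I against TAC (0 to 2 higher). The cause of these shifts was not tested, beyond the smaller number of libraries that leaving some out entails.

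Same-numbered TAC+PDE5A-I and sham libraries did not deviate together (correlations of -0.225 to 0.0873). For same-numbered TAC+PDE5A-I and TAC libraries the correlations were -0.161 to 0.564. With 5 numbers per group these values cannot decide whether the numbers pair animals. With a replicate block TAC+PDE5A-I against sham gave 2531 calls (1263 higher, 1268 lower), TAC against sham 2297 (1057 lower) and TAC+PDE5A-I against TAC 0 (0 higher). Depth limits genes near 1 CPM, where a few counts set the level.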

Other observations

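Some called cell type markers were not given with their values above. Meox1, a transcription factor and 1 of the 11 activated fibroblast markers that rose, stood at 58.1 ± 25.3 CPM in TAC+PDE5A-I hearts and 13.2 ± 2.60 CPM in sham hearts (SD, n = 5 each), a log2 fold change of 2.14 (SE 0.49). Acan, the large proteoglycan of cartilage, rose by 3.65 (SE 0.94), with means of 0.821 CPM in TAC+PDE5A-I hearts and 0.0635 CPM in sham hearts, so a few counts per library set its level. The lymphatic markers Flt4 and Lyve1 were called in opposite directions: Flt4, a receptor of vascular endothelial growth factors, stood at 26.5 ± 2.86 CPM in TAC+PDE5A-I hearts and 18.4 ± 2.06 CPM in sham hearts, and Lyve1, a hyaluronan receptor also found on resident macrophages, at 14.2 ± 4.96 CPM in TAC+PDE5A-I hearts and 24.2 ± 4.80 CPM in sham hearts. The platelet chemokine Ppbp fell by 2.19 (SE 0.60), and its sham spread was wider than its mean. None of these 5 calls was refitted without single libraries.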
